A study of Mus musculus with 4 samples.

Results

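Fabp7, Vim, Nes, Veph1, Hes5, Notch1, Notch2, Dbi, Ptn and Hopx are 10 genes known as markers or regulators of radial glia and neural progenitors, and their levels were followed through the developing superior colliculus of the mouse. They were selected by symbol among the 31053 genes of the count matrix, and all 10 were found. Earlier results of these nuclei were known when the genes were picked, so their levels by cell class and stage are a description, and no test was made on them. The superior colliculus lies in the roof of the midbrain and combines sight with other senses to direct the eyes and head. Nuclei were isolated from this tissue of C57BL/6J mice, a common inbred laboratory strain, at embryonic day 19 (E19) and at postnatal days 4 (P4), 8 (P8) and 21 (P21). No genotype or treatment distinguished the groups. Each stage was 1 library from the pooled tissue of several animals, so nothing here measures how a difference between stages would vary over repeat libraries.

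Radial glia line the ventricle of the embryonic brain, divide to give neurons, and later give rise to astrocytes, ependymal cells and oligodendrocyte lineage cells. Notch receptors on their surface are activated by ligands on neighbouring cells, and the freed intracellular part joins the DNA-binding protein RBPJ and Mastermind coactivators to switch on repressors of the Hes and Hey families, which hold back neuronal differentiation. Vimentin and nestin form the intermediate filaments of these cells, and Fabp7 (brain lipid-binding protein) carries fatty acids in them. Most of these genes are also used outside radial glia, in immature astrocytes, oligodendrocyte precursors and cells of vessels and meninges.

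The libraries held 2249 to 2585 nuclei and 19277512 to 31325079 unique molecular identifiers (UMIs, each standing for 1 captured RNA molecule). Every nucleus carried the authors' class, among 9, and subtype, among 35. The stages, in order of age, contributed 196, 223, 233 and 287 astrocyte nuclei, of which 155, 175, 188 and 232 were labelled protoplasmic and 41, 48, 45 and 55 fibrous. The Dividing Cell class held 36, 25, 35 and 10 nuclei at these stages. Levels are given as CPM, the UMIs of a gene per 1000000 UMIs of all nuclei of a class in 1 library. Their 95% intervals cover counting error only, not differences between animals or preparations.

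The class labels were compared with marker genes. All 6 astrocyte markers were detected in astrocytes at each stage, and their summed level was between 2211 and 6391 CPM. The 4 excitatory neuron markers summed to 367 to 404 CPM in astrocyte nuclei at the 4 stages, so RNA of neuronal genes was present in nuclei of this class in every library, and its source was not tested. The Dividing Cell class held 1698 to 2213 CPM of dividing markers, and its oligodendrocyte precursor markers were at 698, 785, 1546 and 2047 CPM from E19 to P21, while its astrocyte markers were at 1801, 1239, 894 and 483 CPM. The Epithelial Cell class carried vascular leptomeningeal markers at 677 to 1083 CPM, ependymal markers at 0 to 7.39 CPM and choroid plexus markers at 7.28 to 103.5 CPM. It is called by its deposited label only. Among fibrous astrocytes, 1, 12, 1 and 2 nuclei at the 4 stages held at least 3 UMIs of ependymal markers or at least 10 of choroid plexus markers, and values without them are given where they alter a result. Only 9 barcodes occurred in more than 1 library.

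The window around the transcription start, 250 bases before it and 50 after it, was read for all 10 genes from RefSeq (GRCm38.p6) and searched on both strands for the recognition sequence of RBPJ, as the Notch pathway links 3 of the genes. The letters searched were GTGGGAA and its inner part TGGGAA, which lies within the first, and this motif was chosen after values had been seen. GTGGGAA occurred in 6.38% of the 32851 promoter windows of all genes, and 0.256% of windows held it 2 or more times. TGGGAA occurred in 25.6% of windows. Of the 10 genes only Hes5 held GTGGGAA, in 2 copies, and Ptn and Fabp7 each held 1 copy of TGGGAA. These 3 windows are shown because they carry the matches, each from 250 bases upstream to the last base before the annotated gene, 5′ to 3′ on the strand of the gene, with the match in capitals (a match on the opposite strand reads TTCCCAC or TTCCCA).
Hes5, chr4:154960673-154960922, plus strand: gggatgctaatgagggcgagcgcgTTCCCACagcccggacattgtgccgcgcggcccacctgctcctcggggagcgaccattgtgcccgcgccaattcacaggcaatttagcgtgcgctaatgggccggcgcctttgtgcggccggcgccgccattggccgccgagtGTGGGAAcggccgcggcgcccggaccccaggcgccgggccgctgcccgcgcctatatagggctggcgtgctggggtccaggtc
Fabp7, chr10:57784673-57784880, plus strand: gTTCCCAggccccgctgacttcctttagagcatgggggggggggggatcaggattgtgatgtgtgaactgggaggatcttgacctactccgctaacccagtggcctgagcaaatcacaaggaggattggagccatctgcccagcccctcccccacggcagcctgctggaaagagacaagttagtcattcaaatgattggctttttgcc
Ptn, chr6:36810221-36810429, minus strand: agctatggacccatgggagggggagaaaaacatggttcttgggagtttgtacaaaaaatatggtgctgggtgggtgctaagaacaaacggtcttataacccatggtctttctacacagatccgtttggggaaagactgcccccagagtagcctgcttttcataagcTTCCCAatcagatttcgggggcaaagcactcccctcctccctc
In Hes5 the copies begin at -226 and -83 relative to the RefSeq start, on opposite strands. In Ptn the match begins at -84, and in Fabp7 at -249, next to the edge of the window. A match of letters describes the sequence and shows no binding, and its absence from the windows of the other 7 genes says nothing of RBPJ there.

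Most of the 10 genes were lower in astrocyte nuclei at P21 than at E19, and they parted in time: Veph1 was already lower at P4, Nes at P8, and Fabp7, Ptn, Hes5 and Vim had their largest step between P8 and P21. Notch2 was near its E19 level at P21, and Hopx, on 4 and 25 UMIs, was the only one of the 10 that was higher by 2-fold or more. Its log2 ratio was 1.13, and with 20 CPM added in place of 5 it was 0.54, short of 2-fold. Counting a log2 ratio of 1 (2-fold, with 5 CPM added to both values) as a difference, 7 genes were lower at P21 than at E19. Among 8577 genes with at least 20 CPM in 1 of these stages, 18.2% were lower and 8.6% higher by this measure. Of the 10 genes 9 passed that limit, Hopx being the exception. The median log2 ratio was -1.94 for the 10 genes and -0.24 for all 8577. As the genes were chosen with such values in view, nothing is read from their excess over all genes.

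**Figure D1:**
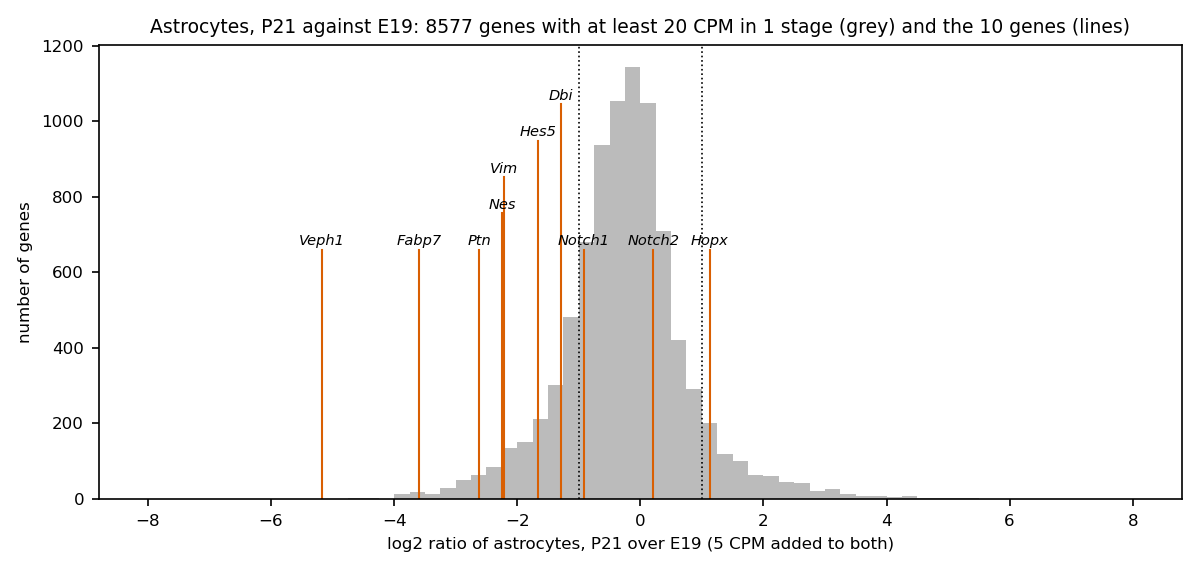
Log2 ratio of astrocyte nuclei at P21 over E19 with 5 CPM added (x axis) against the number of genes (y axis, grey bars, 8577 genes with at least 20 CPM in 1 of the stages); orange lines mark the 10 genes and dotted lines a log2 ratio of -1 and 1. Of the lines, 7 lie left of -1, Notch1 and Notch2 lie between the dotted lines, and Hopx, which is below 20 CPM and not in the bars, lies at 1.13.

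Among the Notch genes the receptors parted. Notch1 (chr2:26457903-26516663, minus strand), a receptor of neural stem cells, was at 219, 194, 173 and 114 CPM in astrocytes at E19, P4, P8 and P21. It was 1.93-fold lower at P21 than at E19, with a counting interval of 1.57 to 2.36, short of the 2-fold limit. Notch2 (chr3:98013527-98150361, plus strand), a receptor also used in meninges and vessels, was at 100, 102, 95.1 and 117 CPM, and its ratio of P21 to E19 was 1.16 (0.903 to 1.51). Hes5 (chr4:154960923-154962371, plus strand), a transcriptional repressor and a standard readout of Notch signalling, was at 241, 310, 260 and 72.6 CPM. Its highest level thus lay at P4, and at P21 it was 3.32-fold lower than at E19 (2.64 to 4.18). The ratio of Notch1 to Notch2 UMIs was 1.13, 0.93, 0.86 and -0.04 on the log2 scale at the 4 stages. This ratio compares stages, not the amounts of the receptors, since Notch2 spans 136.8 kb and Notch1 58.8 kb and intronic reads were counted.

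The filament genes were low in astrocyte nuclei. Vim (chr2:13573927-13582826, plus strand), which encodes vimentin, was at 95.01, 67.3, 49.99 and 16.6 CPM from 88, 68, 62 and 27 UMIs. It was 5.72-fold lower at P21 than at E19 (3.68 to 9.16). Nes (chr3:87971078-87980451, plus strand), which encodes nestin, rested on 20, 13, 4 and 1 UMIs, or 21.6, 12.9, 3.23 and 0.615 CPM. The levels of Nes from P8 on were thus close to nothing, and the fold between P21 and E19, 35.1, has a counting interval of 5.62 to 1455.3. Gfap, the intermediate filament of mature astrocytes, ran the other way: it was at 3.24, 130, 360 and 285 CPM. The log2 ratio of Vim to Gfap UMIs went from 4.87 at E19 through -0.95 at P4 and -2.85 at P8 to -4.10 at P21, so Gfap UMIs outnumbered those of Vim from P4 on.

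The lipid carriers differed in how far they were lowered. Fabp7 (chr10:57784881-57788450, plus strand) was at 869, 592, 503 and 67.7 CPM in astrocytes, 12.9-fold lower at P21 than at E19 (10.5 to 15.8). Most of that difference lay between P8 and P21. Dbi (chr1:120113280-120121078, minus strand), an acyl-CoA-binding protein whose peptide also acts on GABA-A receptors, was at 246, 167, 171 and 97.8 CPM, 2.52-fold lower (2.05 to 3.10). Fabp5, a close relative of Fabp7 found in many cell types, was at 284, 280, 224 and 33.8 CPM. The log2 ratio of Fabp7 to Fabp5 UMIs was 1.61 at E19 and 1.08, 1.17 and 1.00 afterwards.

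Ptn (chr6:36714929-36810220, minus strand) encodes pleiotrophin, a secreted heparin-binding growth factor. It was at 3339.5, 2367, 2225 and 541 CPM in astrocytes, 6.18-fold lower at P21 than at E19 (5.73 to 6.67). At P21 it was still found in 236 of 287 astrocyte nuclei, against 193 of 196 at E19. Its relative midkine (Mdk) was at 58.3, 15.8, 14.5 and 14.2 CPM, so that its lower level was reached by P4, and the log2 ratio of Ptn to Mdk UMIs was 5.84, 7.22, 7.26 and 5.26. In the whole class and in protoplasmic nuclei the ratio was lower at P21 than at E19 in this pair, as it was for Notch1 to Notch2, Vim to Gfap, Fabp7 to Fabp5 and Hes5 to Hes1. The intervals of E19 and P21 overlapped for Ptn to Mdk and Hes5 to Hes1 in both sets of nuclei. For Fabp7 to Fabp5 they overlapped in the whole class only. In fibrous nuclei 3 of the 5 ratios were higher at P21, with overlapping intervals, namely Ptn to Mdk (4.57 and 5.49), Notch1 to Notch2 (0.21 and 0.32) and Fabp7 to Fabp5 (1.13 and 1.58).

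Veph1 (chr3:66053558-66296837, minus strand) encodes a membrane-associated protein with a pleckstrin homology domain. It was at 219, 89.1, 10.5 and 1.23 CPM in astrocytes, from 203, 90, 13 and 2 UMIs. Its fold between P21 and E19 was 178, with an interval of 48.7 to 1481.4, because it rests on 2 UMIs at P21. Hopx (chr5:77086988-77115121, minus strand), a homeodomain-only protein that marks outer radial glia in the human cortex, had 4, 13, 23 and 25 UMIs in astrocytes, or 4.32, 12.9, 18.5 and 15.4 CPM. Its ratio of P21 to E19 was 3.56 (1.23 to 14.1). On the opposite strand Veph1 overlaps Ptx3, Gm37822 and Gm36973, Hopx overlaps Hopxos, Hes5 overlaps Gm20421 and Notch1 overlaps 0610009E02Rik and Gm13568, and the use of read strand in counting is not given in the sources used here.

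Step by step, 1 of the 10 genes was lower by the 2-fold measure from E19 to P4 (Veph1), where 1.97% of all genes were. From P4 to P8 these were 2, Veph1 and Nes, where 4.41% of all genes were lower, and Nes was under 20 CPM at both stages. From P8 to P21 these were 5, where 7.36% of all genes were lower: Fabp7, Ptn, Hes5, Vim and Veph1, the last again under 20 CPM.

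**Figure D2:**
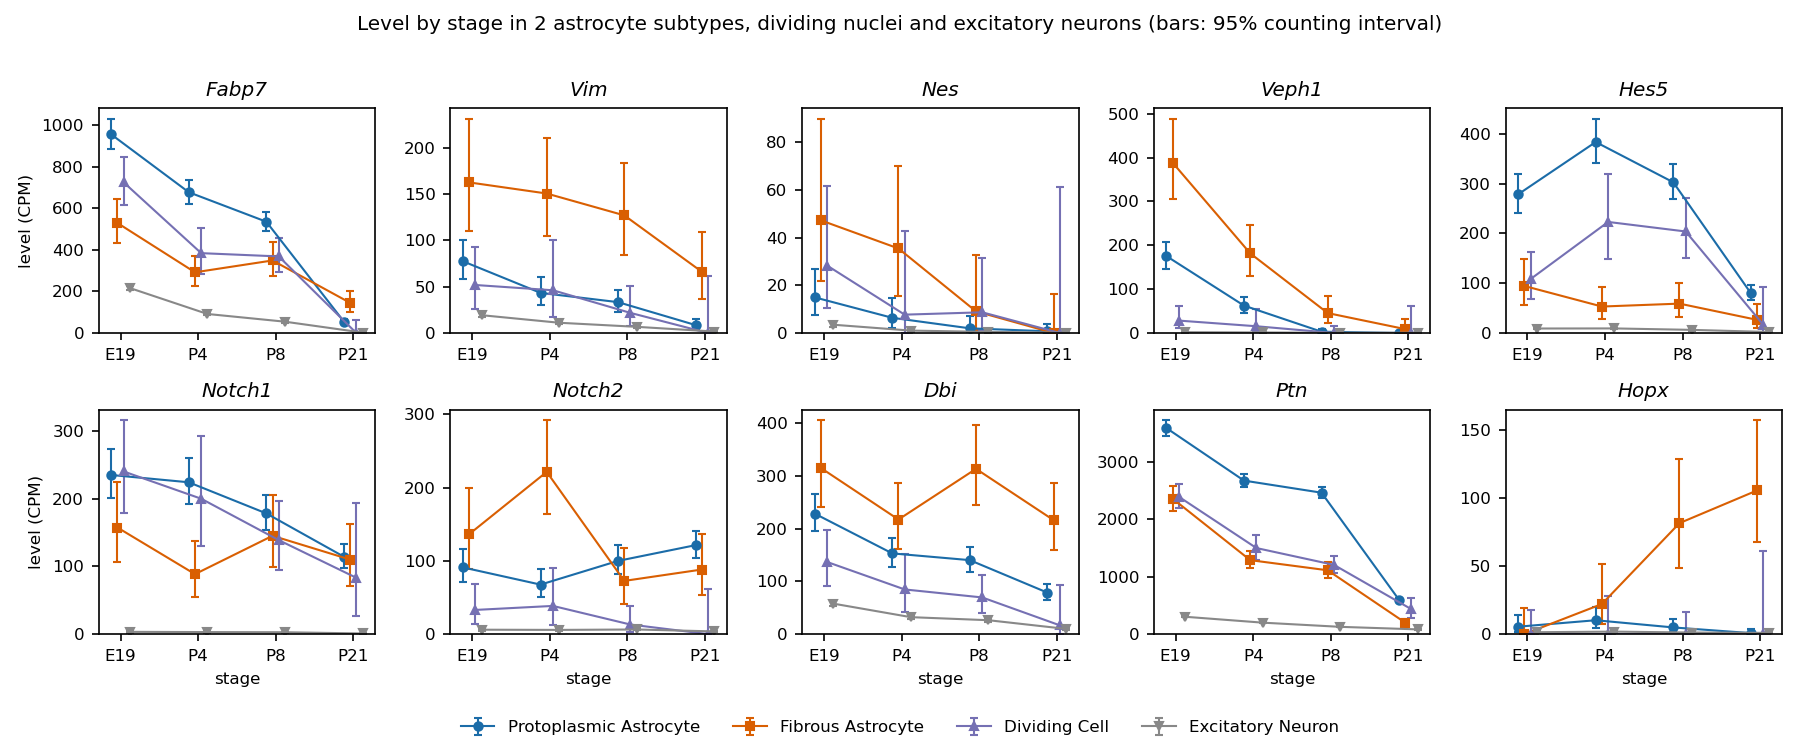
Level in CPM (y axes, each from 0) of the 10 genes by stage (x axes) in protoplasmic and fibrous astrocytes, dividing nuclei and excitatory neurons; points are 1 library each and bars 95% counting intervals. Hopx is higher in fibrous than in protoplasmic nuclei at P8 and P21, where its fibrous level is 81.7 and 106 CPM, and Ptn and Hes5 are lower in fibrous than in protoplasmic nuclei at all 4 stages.

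The astrocyte subtypes differed in which of the genes they held. From E19 to P21, 8 of the 10 genes were lower in protoplasmic nuclei by the 2-fold measure (19.8% of all genes) and 6 in fibrous nuclei (21.3%), where Hopx was higher (15.2%). The 8 were all but Notch2 and Hopx, and 7 of them, all but Nes, reached 20 CPM. Notch1, at 235 and 114 CPM in protoplasmic nuclei, thus passed 2-fold there, though not in the whole class. Protoplasmic astrocytes, the bushy cells of grey matter, had the higher levels of Ptn, Hes5 and, until P8, of Fabp7. Fibrous astrocytes, the long-process cells of white matter, had the higher levels of Vim, Veph1 and Dbi at each stage, and of Hopx from P4 on. The deposited subtypes were drawn by the authors from the expression of these same nuclei, so a difference between the subtypes is a description too. At E19, 3 genes were higher in fibrous nuclei by the 2-fold measure (Vim, Nes and Veph1, where 10.2% of all genes were higher) and, of the genes that reached 20 CPM, 1 was lower (Hes5, where 7.5% were lower). At P4, 4 genes were higher (Vim, Nes, Veph1 and Notch2, 16.5%) and 4 lower (Fabp7, Hes5, Notch1 and Ptn, 10.1%). Without the nuclei with ependymal or choroid plexus markers, 12 of the 48 fibrous nuclei of P4, these counts were 5 (15.3%) and 2 (11.2%). Hopx then passed 2-fold (1.24 on the log2 scale), on 5 fibrous and 8 protoplasmic UMIs with overlapping intervals. Notch1 (-0.98) and Ptn (-0.65) did not. At P8, 5 genes were higher (11.5%), among them Nes on 2 UMIs in each subtype, and 2 lower (6.37%). At P21, 5 genes were higher (Fabp7, Vim, Veph1, Dbi and Hopx, where 16.3% of all genes were higher) and 2 lower (Hes5 and Ptn, where 7.5% were lower). Veph1 rested there on 2 UMIs and was under 20 CPM.

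Hopx showed the widest gap. In fibrous nuclei it had 0, 5, 18 and 24 UMIs, or 0, 22.2, 81.7 and 106 CPM, and in protoplasmic nuclei 4, 8, 5 and 1 UMIs, or 5.44, 10.2, 4.90 and 0.715 CPM. Against the limit of 3 counts that a count of 0 allows, Hopx was 6.72-fold higher in fibrous nuclei at P21 than at E19. This fold leaves out the counting error of the 24 UMIs at P21. At P21 its ratio of fibrous to protoplasmic was 148, with an interval of 24.2 to 6089.9, on 24 UMIs in 11 of 55 fibrous nuclei and 1 UMI in 232 protoplasmic nuclei. At P8 and P21 the level of Hopx in the whole astrocyte class is thus a mean over a few fibrous nuclei and many protoplasmic nuclei with almost none. At E19 all 4 Hopx UMIs lay in protoplasmic nuclei, and at P4 8 of 13 did.

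Fabp7 had the higher level in protoplasmic nuclei up to P8 and in fibrous nuclei at P21. It was at 957, 678, 536 and 55.03 CPM in protoplasmic nuclei and at 530, 293, 350 and 145 CPM in fibrous nuclei. At E19 the protoplasmic level was 1.80-fold the fibrous level (1.46 to 2.25), and at P21 the fibrous level was 2.64-fold the protoplasmic level (1.70 to 4.03). From E19 to P21 Fabp7 was 17.4-fold lower in protoplasmic nuclei (13.7 to 22.3) and 3.64-fold lower in fibrous nuclei (2.44 to 5.57).

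Vim was at 77.5, 43.4, 33.3 and 8.58 CPM in protoplasmic nuclei and at 163, 151, 127 and 66.2 CPM in fibrous nuclei. The fibrous level was the higher at every stage, by 2.10-fold at E19 (1.31 to 3.31) and 7.71-fold at P21 (3.37 to 18.1). Dbi was at 228, 153, 140 and 78.6 CPM in protoplasmic nuclei and at 315, 217, 313 and 216 CPM in fibrous nuclei. From E19 to P21 it was 2.91-fold lower in protoplasmic nuclei (2.27 to 3.73), while in fibrous nuclei the ratio was 1.46-fold with an interval that includes 1 (0.983 to 2.17). Of the 69 Dbi UMIs of fibrous nuclei at P8, 20 came from 1 nucleus, and the 2 fibrous nuclei with ependymal markers at P21 held 7 of the 49 Dbi UMIs there.

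Veph1 was at 175, 62.5, 2.94 and 0 CPM in protoplasmic nuclei and at 388, 182, 45.4 and 8.82 CPM in fibrous nuclei. Against the limit of 3 counts for a count of 0, it was 81.8-fold lower in protoplasmic nuclei at P21 than at E19, from 129 UMIs to 0. This fold leaves out the counting error at E19. In fibrous nuclei 10 UMIs remained at P8 and 2 at P21, both in 1 of the nuclei that held ependymal markers, so without these nuclei Veph1 was at 0 in both subtypes at P21. Nes was at 14.9, 6.38, 1.96 and 0.715 CPM in protoplasmic nuclei and at 47.2, 35.5, 9.08 and 0 CPM in fibrous nuclei, and no fibrous count exceeded 9 UMIs. At P4 the fibrous levels without the nuclei with ependymal or choroid plexus markers were 198 CPM for Vim, 247 CPM for Veph1 and 49.4 CPM for Nes.

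Hes5 and Ptn were on the protoplasmic side at each stage. Hes5 was at 279, 384, 303 and 80.1 CPM in protoplasmic nuclei and at 94.5, 53.2, 59.0 and 26.5 CPM in fibrous nuclei, where no stage had more than 18 UMIs. Hes5 was thus higher at P4 than at E19 in protoplasmic nuclei and not in fibrous nuclei. Ptn was at 3593, 2677, 2466 and 596 CPM in protoplasmic nuclei and at 2361.9, 1289.6, 1112 and 198 CPM in fibrous nuclei. Both subtypes had less Ptn at P21 than at E19, by 6.03-fold (5.57 to 6.52) and 11.9-fold (8.75 to 16.6).

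The receptors were close in both subtypes at P21, with Notch1 at 114 and 110 CPM and Notch2 at 121.5 and 88.2 CPM in protoplasmic and fibrous nuclei. The ratios of fibrous to protoplasmic at that stage were 0.964 for Notch1 (0.606 to 1.48) and 0.726 for Notch2 (0.432 to 1.16). At P4 Notch2 was at 222 CPM in fibrous nuclei against 67.6 CPM in protoplasmic nuclei. Of those 50 fibrous UMIs, 25 lay in the 12 nuclei with ependymal or choroid plexus markers, and without these nuclei the fibrous level was 154.5 CPM (100.0 to 228). At P4 the choroid plexus markers summed to 2451 CPM in fibrous and 173 CPM in protoplasmic nuclei.

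**Figure D3:**
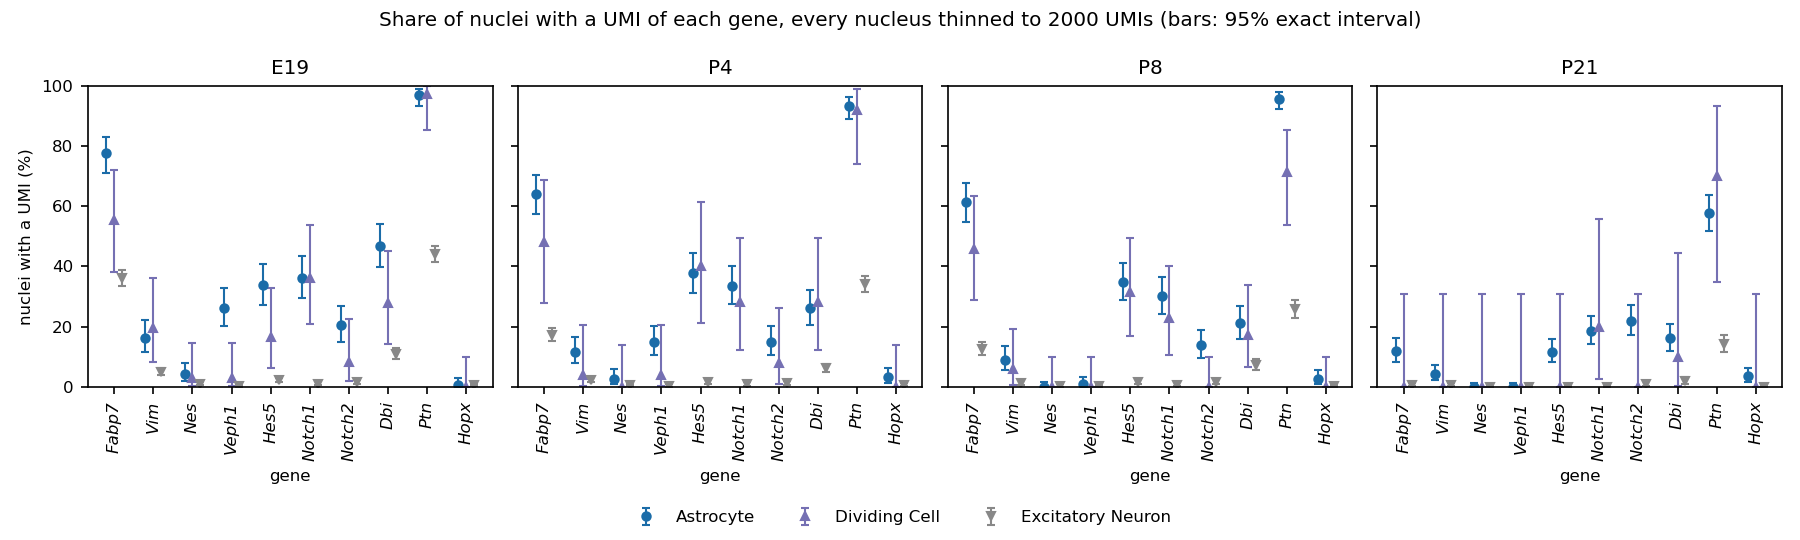
Percent of nuclei with at least 1 UMI of each gene (y axis) for the 10 genes (x axis) in astrocytes, dividing nuclei and excitatory neurons at each stage, after every nucleus was thinned to 2000 UMIs; bars are 95% exact binomial intervals. The astrocyte share of Fabp7 goes from 77.6% at E19 to 11.8% at P21 and that of Ptn from 96.9% to 57.8%, while Notch2 stays between 13.7% and 22.0%.

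The median depth of an astrocyte nucleus was 4697, 4329, 5124 and 5525 UMIs at the 4 stages and that of an excitatory neuron 8051.5 UMIs or more, so shares of nuclei were compared after thinning each nucleus to 2000 UMIs, which left none out. Fabp7 was then found in 77.6%, 64.1%, 61.4% and 11.8% of astrocytes at E19, P4, P8 and P21 (94.4%, 85.7%, 85.8% and 26.5% before thinning). Excitatory neurons, given for comparison, held a Fabp7 UMI in 36.1%, 17.3%, 12.6% and 0.440% of thinned nuclei. Their own RNA and free RNA cannot be told apart, and a Fabp7 UMI at E19 does not by itself mark a glial nucleus. Notch1 stood clearer of this background: its thinned shares were 36.2%, 33.6%, 30.0% and 18.5% in astrocytes and 1.05%, 0.746%, 0.692% and 0% in excitatory neurons. Veph1 was in 26.0%, 14.8%, 0.858% and 0% of thinned astrocytes, where 0 of 287 nuclei allows a share of up to 1.05%.

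Fewer of the genes were found in the same nucleus at later stages. After thinning, at least 3 of the 10 genes were found in 80.1% of E19 astrocyte nuclei (interval 73.8% to 85.5%), in 66.4% of those of P4 (59.8% to 72.5%), in 56.2% of those of P8 (49.6% to 62.7%) and in 14.6% of those of P21 (10.7% to 19.3%). In dividing nuclei these shares were 55.6%, 52%, 25.7% and 0%, on 36, 25, 35 and 10 nuclei. In excitatory neurons they were 4.63%, 1.16%, 0.807% and 0%. The largest number of the genes in 1 thinned astrocyte was 8 at E19 and 4 at P21.

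Dividing nuclei did not exceed astrocytes in any of the 10 genes at E19 by the 2-fold measure, where 8.81% of all genes were higher in dividing nuclei. In 3 genes they were lower (Veph1, Hes5 and Notch2), where 9.32% of all genes were. Fabp7 was at 726, 385, 369 and 0 CPM in dividing nuclei, and Notch1 at 240, 200, 139 and 83.2 CPM, both close to the astrocyte levels at E19. Hes5 was at 108, 223, 204 and 16.6 CPM and Ptn at 2395, 1501, 1207 and 433 CPM. Hopx had no UMI in dividing nuclei at any stage. In the 10 dividing nuclei of P21 a count of 0 allows a level of up to 49.9 CPM.

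The dividing class was a mixture of nuclei with and without precursor markers. Nuclei with at least 3 UMIs of oligodendrocyte precursor markers numbered 15 of 36, 15 of 25, 28 of 35 and 9 of 10 at the 4 stages. Fabp7 was at 796, 406 and 726 CPM in the nuclei with fewer of these UMIs at E19, P4 and P8, and at 621, 368 and 278 CPM in the others, so that the intervals overlapped at E19 and P4 and not at P8, where the former numbered 7. Hes5 was at 126, 318 and 512 CPM against 82.1, 150 and 125 CPM, again with intervals that overlapped at E19 and P4. Ptn was at 2862, 2047 and 2925 CPM against 1700 (1435 to 2001), 1078 and 768 CPM, with intervals apart at each of these stages. A change of the dividing class with stage and a change in its share of precursor-like nuclei cannot be told apart in its mean.

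**Figure D4:**
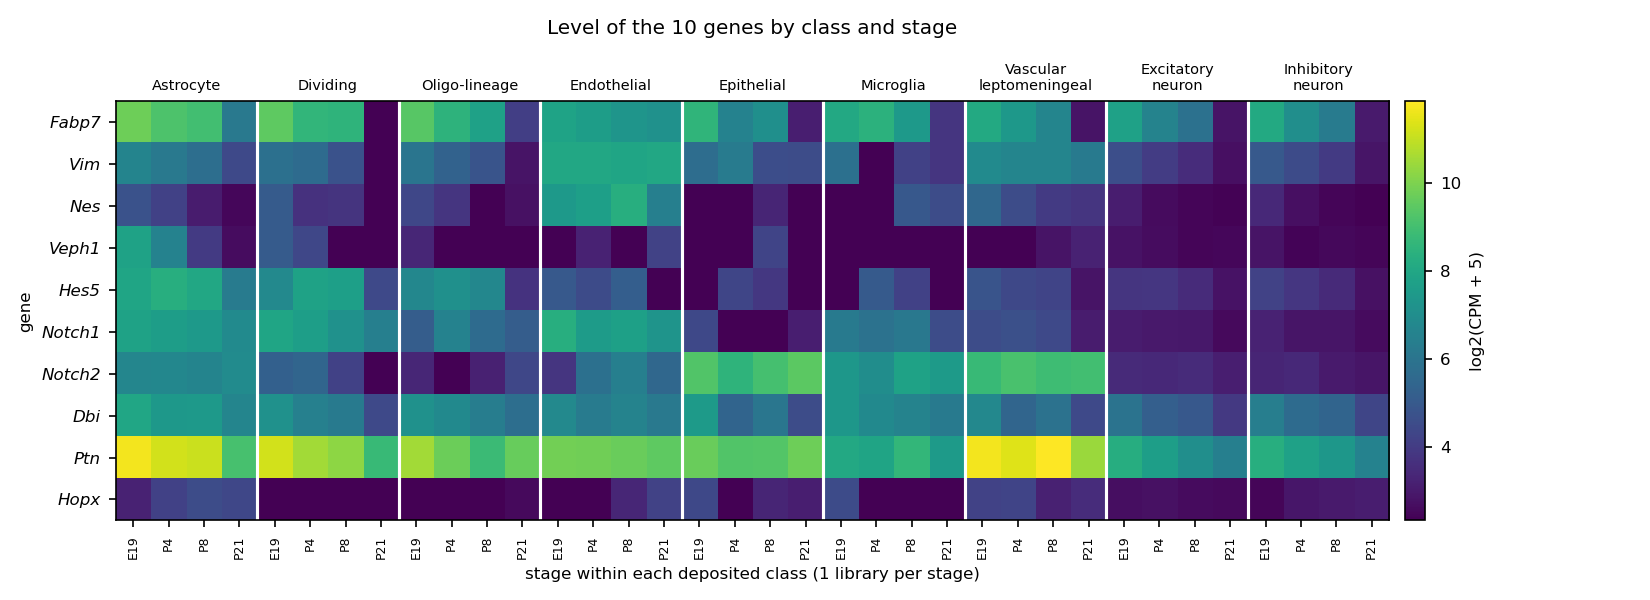
Level of the 10 genes (rows) as log2(CPM + 5) (color) in the 9 deposited classes at the 4 stages (columns, 1 library each). Vim and Nes are brightest in the endothelial class and Notch2 in the epithelial and vascular leptomeningeal classes, while Hes5 and Dbi have their highest level in astrocytes at all 4 stages.

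Most of the 10 genes were not highest in astrocytes at every stage. Hes5 and Dbi had their highest level in astrocytes at all 4 stages, Fabp7 from E19 to P8 and Veph1 at E19 and P4. The later Veph1 leads rested on 3 UMIs at P8 (Epithelial Cell) and 1 UMI at P21 (Endothelial Cell). Their intervals overlapped those of astrocytes. The Endothelial Cell class at P21 held 10 Fabp7 UMIs, 9 of them in 1 nucleus. Astrocytes or dividing nuclei led in 4, 5, 4 and 3 of the 10 genes at E19, P4, P8 and P21. No share of all genes stands beside these counts, so nothing is read from their size. The Hopx lead at P21 was within counting error, at 15.4 CPM in astrocytes against 13.6 CPM in endothelial nuclei, on 1 UMI. The lead of Veph1 at E19 was wide, with 219 CPM in astrocytes, 28.3 CPM in dividing nuclei and at most 5.09 CPM in any other class. For Fabp7 at E19 the astrocyte and dividing intervals overlapped (810 to 931 and 616 to 850 CPM), and oligodendrocyte lineage nuclei followed at 667 CPM (557 to 791).

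Vim and Nes were highest in the Endothelial Cell class at all stages. Vim was there at 261, 258, 242 and 258 CPM and Nes at 171, 205, 309 and 81.3 CPM, in 13, 22, 15 and 12 nuclei. Vim in that class was thus at about the same level at P21 as at E19, while in astrocytes it was 5.72-fold lower. In this class the nuclei with more endothelial than pericyte marker UMIs, a split made after values were seen, numbered 8, 14, 10 and 7. They held Nes at 205, 225, 341 and 86.7 CPM and Vim at 296, 305, 260 and 312 CPM. The nuclei with more pericyte UMIs, 5, 7, 5 and 5 in number, held 1 to 5 Nes UMIs a stage, and 1 nucleus of P4 with equal numbers held none. A single endothelial nucleus held 10 of 19 Nes UMIs at E19 and 11 of 19 Vim UMIs at P21. The Nes level of the class at P21 rested on 6 UMIs in 2 nuclei, 5 of them in 1 nucleus.

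Notch2 was highest in leptomeningeal and epithelial nuclei. In vascular leptomeningeal cells (VLMC), fibroblast-like cells of the meninges and vessels, it was at 432, 560, 478 and 495 CPM, and in the Epithelial Cell class at 614, 362, 523 and 702 CPM. Astrocytes, at 95.1 to 117 CPM, were below both of these at each stage. Ptn was highest in VLMC at each stage, at 3355, 2731, 3746 and 1378 CPM, though its intervals in VLMC and astrocytes overlapped at E19. Ptn was thus high in both astrocytes and VLMC, and in both it was lowest at P21.

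In the oligodendrocyte lineage Ptn took a course of its own. Fabp7 was at 667, 357, 215 and 11.9 CPM and Hes5 at 102, 132, 101 and 8.08 CPM. Ptn was at 1506, 845, 450 and 805 CPM, and at P21 it was at 1008 CPM in the 187 nuclei labelled myelinating oligodendrocytes and at 468 CPM in the 64 nuclei labelled precursors (OPC). Within OPC alone Ptn was at 1548, 1034, 570 and 468 CPM, so it was lowest at P21 there. Myelinating nuclei numbered 1 at P8 and none earlier. Hes5 in OPC was at 105, 166, 133 and 53.4 CPM. Its intervals at E19, P4 and P8 overlapped, on 20, 28 and 68 UMIs. From E19 to P21, 4 of the 10 genes were lower in OPC by the 2-fold measure (Fabp7, Vim, Ptn and, on 1 UMI at E19, Veph1), where 17.8% of all genes were lower, and 1 was higher, where 11.4% of all genes were. The latter was Notch1, at 31.5 and 73.5 CPM, on 6 and 22 UMIs and with a counting interval of its ratio that includes 1 (0.918 to 7.04).

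From P4 to P21 some of the genes were also lower outside astrocytes. By the 2-fold measure, 6 of the 10 were lower in the oligodendrocyte lineage (26.9% of all genes), 4 in VLMC (11.9%), 5 in excitatory neurons (7.15%) and 5 in inhibitory neurons (6.97%). In astrocytes between the same stages 6 were lower (15.8%). The oligodendrocyte lineage held 42 OPC and 12 nuclei labelled committed oligodendrocytes at P4, while 187 of its 306 nuclei at P21 were labelled myelinating. A change within its cells and a change in this make-up cannot be told apart in its count. Of the genes counted as lower, 5 in the oligodendrocyte lineage, 3 in VLMC, 3 in each neuron class and 5 in astrocytes reached 20 CPM in either stage. Neuronal Fabp7 went from 217 to 2.12 CPM in excitatory and from 277 to 3.01 CPM in inhibitory neurons between E19 and P21. As a percent of the astrocyte level, the level in all neurons went from 27.3 to 3.71 for Fabp7, from 26.4 to 12.4 for Dbi, from 23.1 to 11.2 for Vim, and from 1.70 to 0.848 for Notch1. For Ptn it went the other way, from 9.13 to 15.8, and so it did for Veph1, from 0.887 to 43.9 on 2 astrocyte UMIs at P21. For the remaining genes it was lower at P21 than at E19, though for Nes on 1 astrocyte UMI. A gene's own neuronal RNA and free RNA from glia cannot be told apart in these values.

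Over all 10 genes the neuronal percentages at E19 ran from 0.887 for Veph1 to 27.3 for Fabp7. Among the neuron subtypes at E19 Fabp7 ranged from 148 CPM in EN8 to 467 CPM in IN3, with a median of 260 CPM. The subtype IN3 also had the highest neuronal Vim (66.2 CPM) and Dbi (142 CPM) at E19. IN3 led for Fabp7 at P4 and P8 too, at 218 and 92.3 CPM, and at P21 no subtype was above 8.33 CPM. IN4 came next for Fabp7 at E19, P4 and P8, at 403, 215 and 90.8 CPM, each within the counting interval of IN3. For Dbi at E19, IN5 (132 CPM) likewise lay within the interval of IN3.

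Other genes of the same pathways were followed in astrocytes from E19 to P21, in lists drawn up with earlier results of these data known. Ratios are log2 values of P21 over E19, and each count stands against the shares of all genes given above, 18.2% lower and 8.6% higher. Of 15 Notch ligands and modulators, 9 reached 20 CPM, none of them was lower by the 2-fold measure and 1 was higher. That gene was Jag1, a ligand, at 14.0 and 33.2 CPM. Lfng, a glycosyltransferase that modifies Notch receptors, had a ratio of 0.85, and the Notch inhibitors Numb and Numbl had ratios of -0.40 and -0.71. Of 8 receptors and nuclear effectors 7 reached 20 CPM and 2 were lower, namely Maml3, a Mastermind coactivator (-2.44), and Notch3 (-1.51, from 395 to 135 CPM). Rbpj, the DNA-binding partner of the cleaved receptors and named after its values were seen, was at 63.7 and 57.2 CPM. Of 7 genes listed as Notch targets 5 reached 20 CPM, and whether Notch drives each of them here was not tested. Hes5 (-1.66) and Hes6 (-2.29) were lower. Heyl, at 3 and 33 UMIs, was higher, 6.27-fold with a counting interval of 1.97 to 31.9. Among ligands under 20 CPM, Dll1 was at 16 and 4 UMIs and Dll3 at 7 and 0, with log2 ratios of -1.58 and -1.33, both named after their values were seen.

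Of 5 filament genes 3 reached 20 CPM, and Vim and Nes were lower while Gfap was higher, 88.1-fold with a counting interval of 29.96 to 428.8. Of 8 lipid-binding genes 6 reached 20 CPM and 4 were lower, namely Fabp7, Dbi, Fabp5 (-2.90) and, named after its value was seen, Fabp3 (-1.67), while Acbd5, an acyl-CoA-binding relative of Dbi, had a ratio of 0.38. Of 11 genes for pleiotrophin, midkine and their receptors, 9 reached 20 CPM, 5 were lower and 1 was higher. Lower were Ptn, Mdk (-1.73), the receptors Ptprz1 (-1.16) and Alk (-1.15) and the heparan sulphate proteoglycan Sdc3 (-1.14), the last 3 named after their values were seen. Sdc4, another such proteoglycan, was higher, from 9.72 to 130 CPM, and Sdc2 had a ratio of 0.71. The ligand Ptn and its receptor Ptprz1 were thus both lower at P21.

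Of 25 other genes of radial glia 24 reached 20 CPM, and 5 were lower and 2 higher. Tnc, a matrix protein of the germinal zone, was at 2727 and 206 CPM and Prom1, a membrane protein of progenitors, had a ratio of -2.34, while the transcription factor Pax6 (1.16) and the glycolytic enzyme Aldoc (1.04) were higher. The other 3 that were lower, named after their values were seen, were Sox2 (-1.75), Pdpn (-1.27) and Nfib (-1.06). The median of these 25 genes was -0.15 and that of all genes -0.24. For 17 of the 24 the ratio was under 2-fold in either direction. Of 18 genes of mature astrocytes, which all reached 20 CPM, 15 were higher and none lower, with a median of 2.11. Among these Etnppl, an enzyme of phospholipid turnover, was at 0 and 435 UMIs and Gfap at 3 and 464 UMIs, while Apoe and Aldh1l1 had ratios of -0.62 and -0.95. Of 20 proliferation genes 2 reached 20 CPM in astrocytes and both were lower, Cenpf at 39 and 0 UMIs and Mcm6 at 20 and 6.

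**Figure D5:**
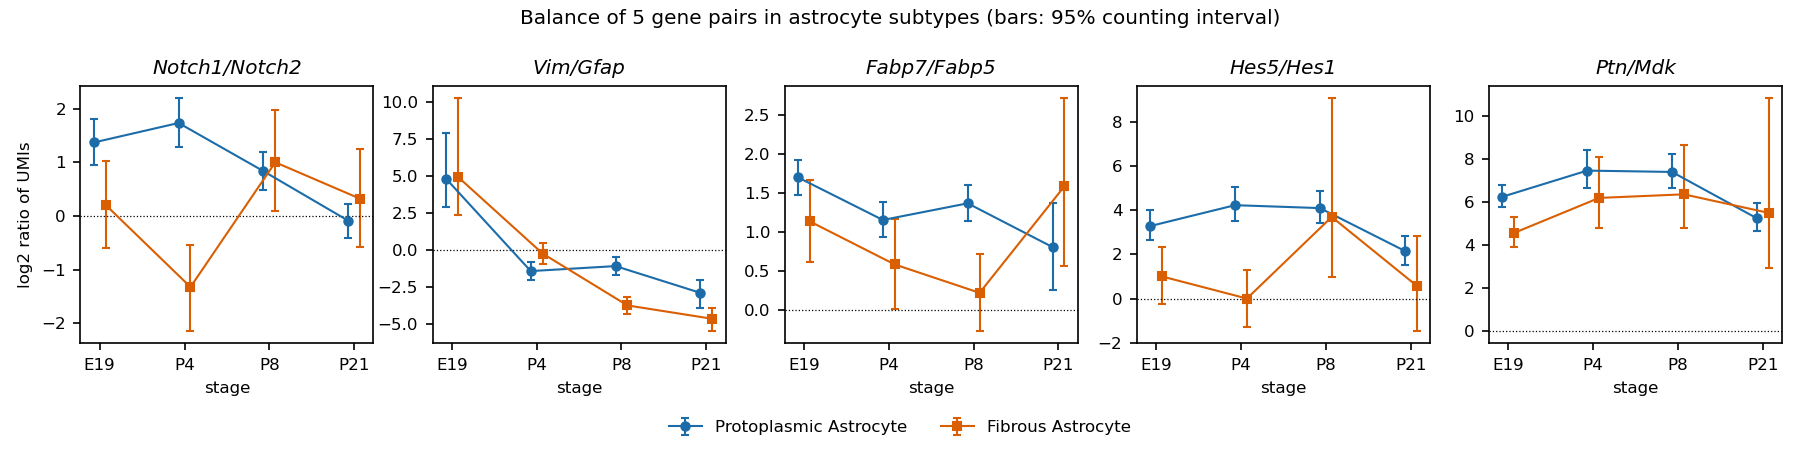
Log2 ratio of the UMIs of 5 gene pairs (y axes) by stage (x axes) in protoplasmic and fibrous astrocytes; points are 1 library each, bars 95% counting intervals and the dotted line equal counts. In the whole class Vim to Gfap runs from 4.87 at E19 to -4.10 at P21 and Notch1 to Notch2 from 1.13 to -0.04.

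The genes whose levels ran most like each of the 10 were ranked by Pearson's r of log2 levels over 29 profiles, each a class at 1 stage with at least 20 nuclei, among 9580 genes with at least 50 CPM in 1 profile. The profiles of 1 library share its depth and free RNA, so r is a description. The 3 nearest genes are given for each. Nearest to Fabp7 were Fabp5 (r = 0.98) and the tubulins Tubb2a (0.95) and Tubb2b (0.93), and to Dbi Ckb (0.89), Ednrb (0.87) and Pmm1 (0.86). Nearest to Hes5 were Ptprz1 (0.94), Lsm6 (0.93) and Gldc (0.92), to Notch1 Hnrnpa2b1 (0.88), Diaph3 (0.87) and Mfge8 (0.86), and to Notch2 Irf2bp2 (0.93), Lamp2 (0.92) and Copz2 (0.92). Vim ran with the matrix gene Fbln2 (0.87), Ptov1 (0.84) and the collagen chaperone Serpinh1 (0.83), and Nes with Gng5 (0.86), Fth1 (0.85) and Ier2 (0.81), which all peaked in the endothelial class at P4, the only endothelial profile with at least 20 nuclei. Ptn ran with the glutamate transporter Slc1a3 (0.89), Lrp4 (0.88) and Dennd2a (0.87), Veph1 with Ccdc60 (0.86), Pdlim3 (0.83) and Ak9 (0.78), and Hopx with Gm15345 (0.83), Acot11 (0.82) and Aldh7a1 (0.81). Within the group of 10 the closest pair was Fabp7 and Dbi (0.85) and the next Hes5 and Notch1 (0.84), while Hes5 and Notch2 were at -0.09. The 10 genes thus did not follow 1 common profile across classes.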

How the data were processed

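Nuclear RNA of superior colliculus was captured with 10x Genomics 3′ v3 chemistry. The authors aligned each library with Cell Ranger 3.0.2 to a pre-mRNA reference built from mm10, per the labels' protocols, so intronic reads entered the counts. The deposited matrix holds UMI counts per gene and nucleus (31053 genes, 9724 nuclei), not normalised, and the deposited table of nuclei gives class, subtype and stage, with the percent of mitochondrial UMIs, which was at most 5.0. How nuclei were filtered, doublets removed and classes named is not given in the sources used here, and no further filter or doublet caller was applied. The deposited totals per nucleus equalled the matrix totals in all 9724 nuclei. In the table of nuclei, 7 columns were not used.

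Stages came from the deposited stage column and the sample labels. The text of the labels gives 2 abbreviations for the embryonic stage, and E19, that of the sample title, was used. For each class and library, UMIs of all its nuclei were added up and scaled to CPM. Log2 ratios had 5 CPM added to both values, which understates differences of low genes, and a log2 ratio of 1 counted as a difference. Shares of all genes refer to the genes that reached 20 CPM in 1 or both of the groups compared. Intervals are exact at the 95% level (Poisson for levels, conditional binomial for folds, Clopper-Pearson for shares), and a count of 0 was given a limit of 3 counts per class and library. With 1 library per stage no test was made. Thinning to 2000 UMIs used random seed 20. Scripts ran in Python 3.11.15 with NumPy 2.4.6, SciPy 1.17.1, pandas 2.3.3 and matplotlib 3.10.9, and the counting of calls was tested on simulated data.

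The 10 genes, the pathway lists, the markers and the comparisons were chosen with earlier results of these data known. Named are the 10 genes, the 3 genes of most like profile for each (haemoglobins, sex-linked and mitochondrial genes and those for ribosomal proteins did not enter), the partner in each pair, and from each list the lowest and highest ratios (up to 2 each) among genes that reached 20 CPM. Alternatives were 1 or 20 CPM added, median scaling, nuclei weighted alike, thinning, other sets of nuclei or classes, and the neuronal level subtracted. The exclusion of nuclei with ependymal or choroid plexus markers, the split of the endothelial class, the motif and the steps under the closer look were chosen after values were seen. Gene positions are those of the GENCODE annotation of GRCm38 (mm10), 1-based, and promoter sequences those of RefSeq on GRCm38.p6.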

Additional observations from a re-analysis of the deposited data

Results flagged for a closer look

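A set of 6 gene and stage steps was picked out because a gene was higher at the later stage in 1 cell group and lower in another, with counting intervals of both ratios that excluded 1. No share of all genes that meet this rule is given, so nothing is read from the number of steps. The steps between neighbouring stages were looked at after values had been seen and after a first set of steps had given none, the differences between the groups were not tested, and the intervals cover counting error only. Values are log2 ratios with 5 CPM added, in the group that was higher.

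Hes5 was higher at P4 than at E19 in astrocytes, by 0.36 (241 and 310 CPM), and lower in inhibitory neurons. Notch1 was higher over the same step in the oligodendrocyte lineage, by 1.39 (30.5 and 88.0 CPM, on 6 and 20 UMIs), and lower in inhibitory neurons. Notch2 was higher at P8 than at P4 in protoplasmic astrocytes, by 0.53 (67.6 and 100 CPM), and lower in fibrous astrocytes, where 25 of the 50 UMIs at P4 lay in nuclei with ependymal or choroid plexus markers. From P8 to P21 Notch2 was higher in the oligodendrocyte lineage, by 1.19 (4.09 and 15.7 CPM), and lower in excitatory neurons.

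Ptn was higher at P8 than at P4 in VLMC, by 0.46 (2731 and 3746 CPM), and lower in astrocytes, the oligodendrocyte lineage and both neuron classes. From P8 to P21 it was higher in the oligodendrocyte lineage, by 0.83 (450 and 805 CPM), and lower in astrocytes, VLMC and both neuron classes. The number of myelinating nuclei in that lineage was 1 at P8 and 187 at P21, and their part in the difference was not tested.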

How the results depend on the processing

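No paired analysis was possible because each stage was 1 library. Of 94 alternative values for counts of genes, 83 stayed within 1.5 times the value reported, and the count of 7 genes lower in astrocytes at P21 than at E19 did so under each alternative run. With 20 CPM added in place of 5, the count lower from P4 to P21 was 1 in VLMC (from 4), 2 in excitatory neurons and 2 in inhibitory neurons (from 5 each). With genes of at least 20 CPM only, it was 3 in both neuron classes. With the neuronal level subtracted, 5 genes in place of 3 were lower in dividing nuclei than in astrocytes at E19. In nuclei thinned to 2000 UMIs, 1 gene in place of 2 was lower in fibrous than in protoplasmic nuclei at P21. The number highest in astrocytes or dividing nuclei depended on the classes compared: at E19 it was 7 after thinning and 10 among classes of at least 50 nuclei (4 as reported), and at P21 it was 1 and 5 (3 as reported). At E19 only astrocytes (196 nuclei), excitatory neurons (1338) and inhibitory neurons (893) held at least 50 nuclei. The value of 10 thus sets astrocytes against neurons alone. The cause of the other differences was not tested. Of 217 alternative values for single genes and pairs, 202 moved by less than their counting interval (or, where it had no bound, kept their side of 2-fold) and no value of 2-fold or more changed sign. Of the values under 2-fold, 3 alternatives changed the sign: Notch2 in astrocytes (P21 over E19) was at -0.11 with both subtypes weighted alike, and Notch1 in fibrous over protoplasmic nuclei at P21, at -0.05 as reported, was at 0.21 after thinning and at 0.0078 without nuclei with ependymal or choroid plexus markers. With both subtypes weighted alike, Dbi was at -0.86, which ends its 2-fold call, Fabp7 at -2.83 (P21 over E19, log2) and Hopx at 2.92. With P4 in place of E19, Dbi was at -0.75 and Hopx at 0.19, and Hopx was at 0.54 with 20 CPM added, all short of 2-fold. After thinning, Notch1 was at -1.10, past 2-fold, and Hes5 in fibrous over protoplasmic nuclei at P21 was at -0.92, short of it. Veph1 in fibrous over protoplasmic nuclei at P21 was at 0 without the 2 nuclei with ependymal markers and after thinning, and at 0.53 with 20 CPM added. Median scaling moved all genes by -0.15 in astrocytes (P21 over E19) and by 0.17 in fibrous over protoplasmic nuclei. Leaving out nuclei with neuron markers could not be run for neurons. Depth limits Nes, Hopx and late Veph1, which rest on 1 to 25 astrocyte UMIs a stage, and the endothelial, epithelial, microglial and dividing classes, which held 10 to 40 nuclei.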
